A study of Saccharomyces cerevisiae with 6 samples.

Results

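Iron uptake by surface reduction, and the handling of iron after uptake, were followed through 10 genes of budding yeast: FRE1, FRE2, FRE3, FRE4, FET3, FTR1, CCC2, SMF3, TIS11 and HMX1. The genes were taken by symbol as the ferric reductases, the ferroxidase, the permease and further targets of the iron-responsive activator Aft1. All 10 were found, each with 1 probe set, among the 5449 genes named on Affymetrix Yeast Genome 2.0 arrays. The 6 arrays held total RNA of 3 haploid strains with 2 arrays each: BY4741 delta eos1, BY4741 delta izh2 and wild-type BY4741. The strains share the BY4741 background, a laboratory strain of mating type a without functional HIS3, LEU2, MET17 and URA3. The labels name no treatment and no change in the metal content of the medium. They do not say how many clones of a deletion strain were used. All cultures grew in YPD, a rich medium, at 30 degrees Celsius with shaking at 150 rpm and were harvested in log phase at an optical density of 1.0. EOS1 encodes a protein of the endoplasmic reticulum membrane required for tolerance of oxidative stress, IZH2 encodes a membrane protein of the progestin and adiponectin receptor family that affects zinc metabolism, and the title of the series names zinc homeostasis as its subject.

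Yeast takes up iron in steps. Ferric reductases at the cell surface turn ferric iron into ferrous iron, the multicopper oxidase Fet3 oxidises it again, and the permease Ftr1, which forms a complex with Fet3, carries it into the cell. When iron runs short, Aft1 and its paralogue Aft2 activate the genes of this pathway together with genes for siderophore uptake, for release of iron from the vacuole, for the breakdown of haem and for the decay of messenger RNAs that encode iron-using proteins.

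The arrays were checked first. EOS1 had signals of 0.42 and 2.70 on the eos1 deletion arrays and IZH2 had a signal of at most 3.46 on the izh2 deletion arrays, both below the background of those arrays (8.70 to 15.2), while the wild-type arrays gave 694 and 692 for EOS1 and 3543 and 2390 for IZH2. The median of the 4907 genes tested lay 0.21 higher in the eos1 deletion than in the wild type on the log2 scale. It lay 0.11 lower in the izh2 deletion than in the wild type (difference -0.11) and 0.31 higher in the eos1 deletion than in the izh2 deletion. Many fold changes are therefore given a second time on median-centred values, from which the median log2 signal of the array had been subtracted. The plot of fold changes shows all members on that scale. The eos1 deletion arrays stood apart in their chromosome II genes, whose median log2 fold change against the wild type was 1.03, against 0.19 for genes of other chromosomes, and 0 of the 10 iron genes lie on chromosome II. The summed signal of 7 genes specific to mating type a was 7283 and 5857 on the eos1 deletion arrays, 17602 and 15236 on the izh2 deletion arrays, and 19531 and 18197 on the wild-type arrays. That of 4 genes specific to mating type alpha, 3 of them too dim to be tested, was 629 and 541, 331 and 310, and 356 and 319 in the same order of strains. Of 14 general stress genes 7 rose and 0 fell in the eos1 deletion against the wild type, where 6.4% of all tested genes were called higher (limma). After median centring 5 rose, where 4.22% of tested genes were called higher. Among the 14 genes, 2 lie on chromosome II. In the izh2 deletion against the wild type 0 of the 14 passed, all 14 had negative values also after median centring, and their median log2 fold change was -0.76. In RNA from whole cultures, fewer cells of a type and less RNA per cell cannot be told apart. The part of these differences in any iron gene result was not tested.

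Within the iron genes, the haem oxygenase gene HMX1 was higher in the eos1 deletion than in the wild type, a call that was lost after median centring. HMX1 was bright enough to be tested only through its higher deletion arrays. Its wild-type signals of 75.6 and 62.5 lay under the 91.8 that testing required on average. No other member passed the test against the wild type in either deletion. The uptake pair FET3 and FTR1 showed its highest mean in the izh2 deletion, where FTR1 lay above all other arrays. FET3 overlapped the other strains there, and its higher mean came from the second izh2 deletion array. FRE1, the surface reductase gene, had nearly the same signal in all strains. TIS11, FRE4, CCC2 and FET3 were higher on the second array of each deletion strain than on its first. The plot of signals by array shows the values of all members.

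**Figure D1:**
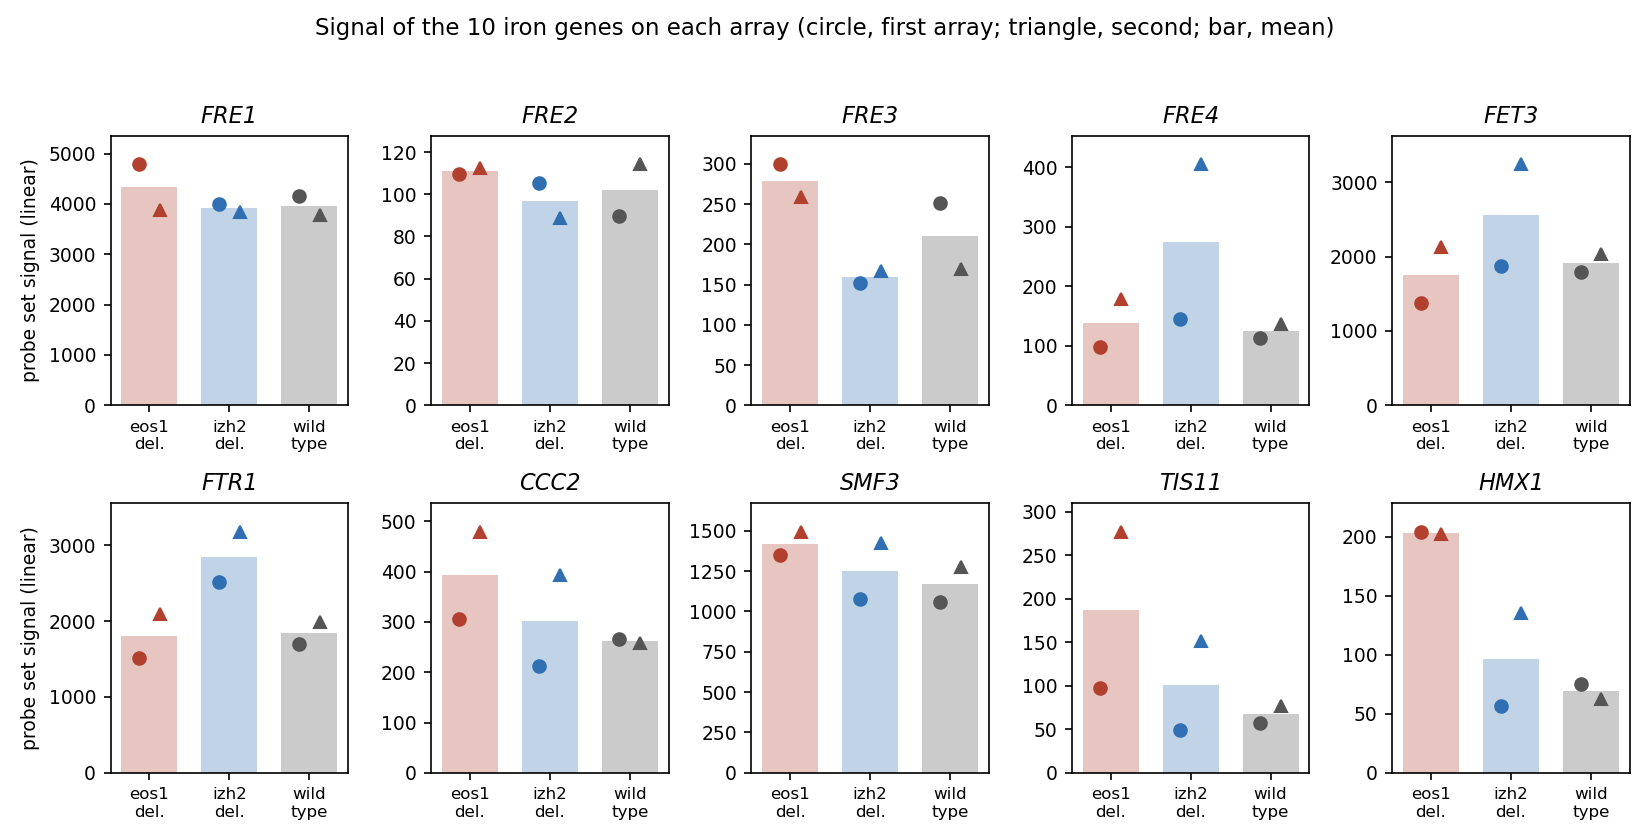
Probe set signal (linear scale, one axis per gene) of the 10 iron genes, with strains from left to right as eos1 deletion, izh2 deletion and wild type; circles are the first array of a strain, triangles the second and bars the mean of the 2. HMX1 stands at 204 and 202 in the eos1 deletion, above all other arrays, and the triangles of TIS11, FRE4, CCC2 and FET3 stand well above the circles in both deletion strains.

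FRE1 and FRE2 encode the main cell-surface reductases for ferric iron, and Fre1 also reduces copper. FRE1 had signals of 4784 and 3888 on the eos1 deletion arrays, 3997 and 3843 on the izh2 deletion arrays, and 4150 and 3775 on those of the wild type. The arrays of each pair of strains overlapped. Its log2 fold change was 0.12 in the eos1 deletion against the wild type (95% confidence interval -0.27 to 0.52) and -0.01 in the izh2 deletion against the wild type (-0.41 to 0.38), and both signs turned after median centring (-0.11 and 0.10). The intervals of FRE1 were the narrowest among the 10 members. FRE2 had signals of 109.5 and 113 on the eos1 deletion arrays, 105 and 88.8 on the izh2 deletion arrays, and 89.9 and 114 on those of the wild type. These lie close to the signal of 91.8 that the filter on dim genes required on average, and the wild-type arrays spanned nearly all values of the deletion strains. FRE2 had a log2 fold change of 0.13 in the eos1 deletion against the wild type (-0.51 to 0.78) and -0.07 in the izh2 deletion (-0.71 to 0.58), and again both signs turned after median centring (-0.10 and 0.05).

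FRE3 and FRE4 encode reductases that act on iron bound to siderophores, the iron chelators that yeast scavenges from its surroundings. FRE3 gave 299 and 259 on the eos1 deletion arrays, 152 and 167 on the izh2 deletion arrays, and 251 and 169 on those of the wild type. As deposited, the arrays of the 3 strains did not overlap, with the eos1 deletion highest and the izh2 deletion lowest. The wild-type arrays nearly reached both neighbours. The log2 fold change against the wild type was 0.43 in the eos1 deletion (limma, adjusted p = 0.37). For the izh2 deletion it was -0.37 (limma, adjusted p = 0.998). FRE4 gave 97.8 and 179 on the eos1 deletion arrays, 145 and 405 on the izh2 deletion arrays, and 112 and 136 on those of the wild type. Both izh2 deletion arrays lay above the wild-type arrays, the second far above, while the eos1 deletion arrays overlapped with both other strains. The log2 fold change of 0.97 in the izh2 deletion against the wild type had a 95% confidence interval from -0.02 to 1.96, and that of 0.09 in the eos1 deletion one from -0.90 to 1.09. For the izh2 deletion the value was 0.23 without its second array and 1.71 without its first. After median centring the log2 fold change was 1.09 in the izh2 deletion and -0.14 in the eos1 deletion.

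FET3 and FTR1 encode the oxidase and the permease of the high-affinity uptake complex, and neither protein leaves the endoplasmic reticulum correctly without the other. FET3 had signals of 1381 and 2126 on the eos1 deletion arrays, 1872 and 3239 on the izh2 deletion arrays, and 1789 and 2036 on those of the wild type. All strains overlapped, and the second izh2 deletion array was the highest. FTR1 had signals of 1511 and 2093 on the eos1 deletion arrays, 2514 and 3178 on the izh2 deletion arrays, and 1693 and 1991.5 on those of the wild type. Both izh2 deletion arrays lay above every other array, while the eos1 deletion and wild-type arrays overlapped. In the izh2 deletion against the wild type the log2 fold change was 0.62 for FTR1 (95% confidence interval 0.08 to 1.17; limma, adjusted p = 0.998) and 0.37 for FET3 (-0.31 to 1.04). In the eos1 deletion against the wild type it was -0.05 for FTR1 (-0.59 to 0.50) and -0.16 for FET3 (-0.83 to 0.52). Neither gene passed the test against the wild type in either deletion. In the eos1 deletion against the wild type the signs turned without the first eos1 deletion array, to 0.19 for FTR1 and 0.16 for FET3. That of FTR1 also turned without the second wild-type array, to 0.07. In the izh2 deletion against the wild type FTR1 ran from 0.45 to 0.79 on leaving out 1 array. FET3 in that comparison was -0.03 without the second izh2 deletion array. After median centring FTR1 and FET3 had -0.28 and -0.39 in the eos1 deletion against the wild type. In the izh2 deletion they had 0.74 and 0.49.

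CCC2 encodes the copper-transporting ATPase that loads copper into Fet3 in the secretory pathway. It had signals of 307 and 479 on the eos1 deletion arrays, 211 and 394 on the izh2 deletion arrays, and 266 and 258 on those of the wild type. As deposited, the eos1 deletion arrays lay above the wild-type arrays, and the izh2 deletion arrays lay on both sides of them. The log2 fold change against the wild type was 0.55 in the eos1 deletion (-0.15 to 1.25; limma, adjusted p = 0.35). For the izh2 deletion it was 0.14 (-0.56 to 0.84).

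SMF3 encodes the transporter that moves iron out of the vacuole, the store of the yeast cell. It had signals of 1348 and 1493 on the eos1 deletion arrays, 1076 and 1422 on the izh2 deletion arrays, and 1061 and 1275 on those of the wild type. The eos1 deletion arrays lay above the wild-type arrays, as did the median of all genes. The log2 fold change in the eos1 deletion against the wild type was 0.29 (-0.25 to 0.83) as deposited and 0.06 after median centring, and that in the izh2 deletion against the wild type was 0.09 (-0.45 to 0.63).

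TIS11, also called CTH2, encodes an RNA-binding protein that promotes the decay of messenger RNAs for iron-using proteins when iron is scarce. It had signals of 97.9 and 277 on the eos1 deletion arrays, 49.4 and 152 on the izh2 deletion arrays, and 57.6 and 77.3 on those of the wild type. As deposited, the eos1 deletion arrays lay above the wild-type arrays but stood far apart from each other. The izh2 deletion arrays lay on both sides of the wild type. The log2 fold change was 1.30 in the eos1 deletion against the wild type, with a 95% confidence interval from 0.04 to 2.56 and a limma adjusted p of 0.21. In the izh2 deletion against the wild type it was 0.37 (-0.88 to 1.63). After median centring the value in the eos1 deletion was 1.07 with an interval from -0.38 to 2.52. As deposited it was 0.55 without the second eos1 deletion array and 2.05 without the first.

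HMX1 encodes a haem oxygenase of the endoplasmic reticulum, which breaks haem down and sets its iron free. It had signals of 204 and 202 on the eos1 deletion arrays, 56.4 and 136 on the izh2 deletion arrays, and 75.6 and 62.5 on those of the wild type. Both eos1 deletion arrays lay above every other array, and the izh2 deletion and wild-type arrays overlapped. HMX1 rose 2.96-fold in the eos1 deletion against the wild type, a log2 fold change of 1.56 (95% confidence interval 0.69 to 2.44; limma, adjusted p = 0.039). After median centring the log2 fold change was 1.33 (0.43 to 2.24) and the call was lost (limma, adjusted p = 0.087). The call was also lost after quantile normalization (log2 fold change 1.08, adjusted p = 0.17). It was lost again when genes of chromosome II were left out of the fit (adjusted p = 0.093), and on leaving out the first (adjusted p = 0.11) or the second (adjusted p = 0.069) array of the eos1 deletion, although the log2 fold change was then 1.56, 1.56 and 1.57. In the izh2 deletion against the wild type its log2 fold change was 0.35 (-0.52 to 1.22). The filter on dim genes passed HMX1 and TIS11 through their higher deletion arrays, since their wild-type means of 69.0 and 67.5 lay under the level of 91.8.

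The comparison of the eos1 deletion with the wild type therefore called 1 member higher, HMX1, and 0 lower, where 7.11% of all tested genes were called, 6.4% higher and 0.713% lower (limma, adjusted p under 0.05). At an unadjusted p under 0.05 stood 2 members, HMX1 and TIS11, and 21.8% of tested genes. As these are the members that passed the filter through their higher deletion arrays, nothing is read from that count. At 1 in 10, the share of members called is near that of all genes, and it was 0 after median centring, where 4.22% of tested genes were called higher and 2.24% lower. As deposited, the arrays of the 2 strains did not overlap for 5 members, all higher in the deletion (FRE3, CCC2, SMF3, TIS11 and HMX1). Of all tested genes 41.9% showed that pattern and 8.84% the opposite. After median centring only 1 member stood apart higher and 1 lower, while 8 overlapped. The share of all tested genes is not given on that scale. As deposited, the median log2 fold change of the 10 members was 0.21, the same as the 0.21 of all tested genes. The members ran from -0.16 (FET3) to 1.56 (HMX1).

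The comparison of the izh2 deletion with the wild type called 0 members, and 0.0204% of tested genes, which is IZH2 alone. At an unadjusted p under 0.05 stood 1 member, FTR1, and 2.14% of tested genes (limma). Arrays did not overlap for 3 members, with FTR1 and FRE4 higher and FRE3 lower, and for 5.2% and 22.9% of tested genes in these directions. The median log2 fold change of the members was 0.24, against -0.11 for all tested genes, and it ran from -0.37 (FRE3) to 0.97 (FRE4). After median centring 9 of the 10 members had a positive value, FRE3 being the exception. The arrays of 3 members then stood apart, all higher, with no share of all genes given on that scale. The median of the members stood 0.35 above that of all genes, but at -0.01 relative to it without the second izh2 deletion array and at 0.82 without the first. The 2 comparisons share the wild-type arrays.

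**Figure D2:**
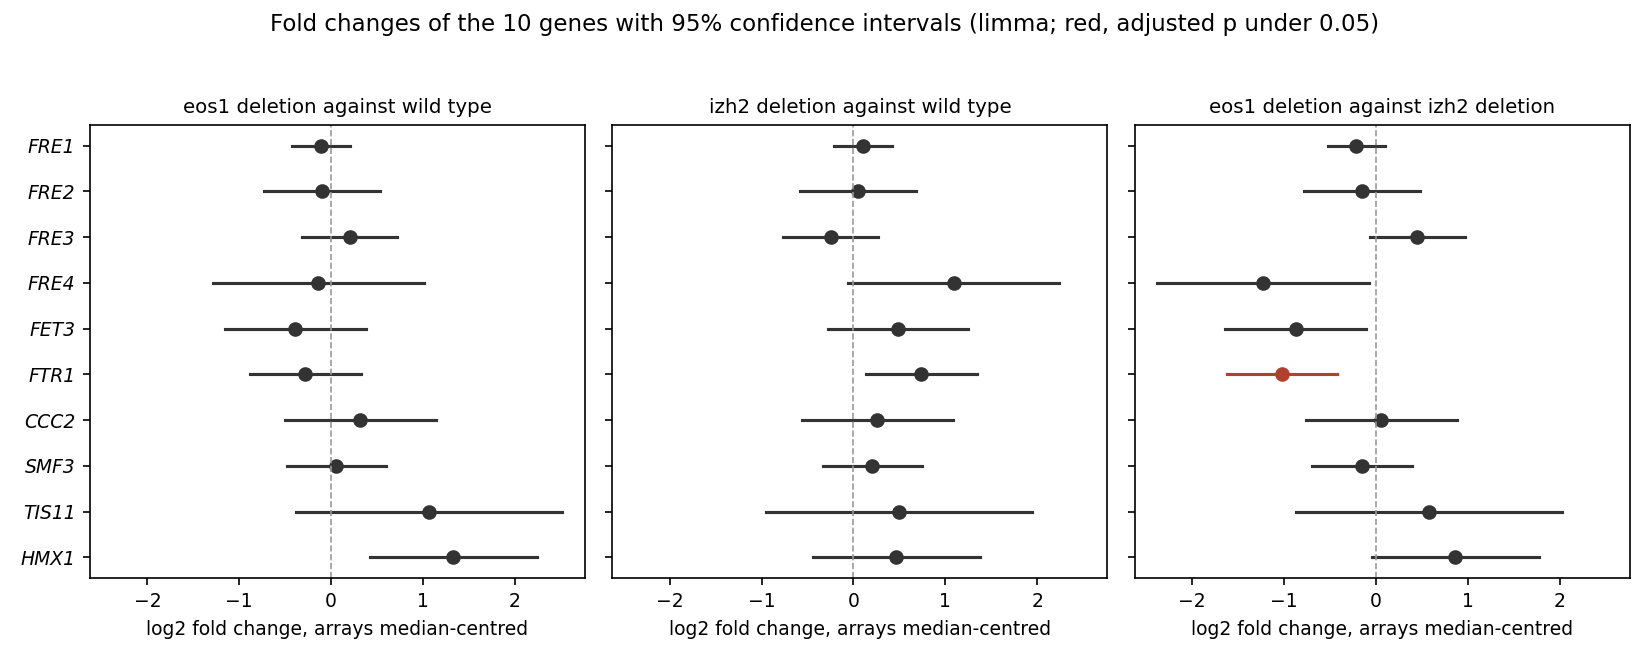
Log2 fold change of each iron gene on median-centred values (points) with 95% confidence intervals from the limma fit (lines), in 3 panels for the eos1 deletion against the wild type, the izh2 deletion against the wild type and the eos1 deletion against the izh2 deletion; red marks an adjusted p under 0.05 on these centred values. The interval of HMX1 lies above 0 in the first panel and that of FTR1 above 0 in the second, and in the third panel the intervals of FRE4, FET3 and FTR1 lie below 0, with FTR1, at -1.02, in red.

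Since the deletion strains have no arrays in common, they were also set against each other directly. FTR1 stood lower in the eos1 deletion, with arrays that did not overlap. Its log2 fold change in the eos1 deletion against the izh2 deletion was -0.67 (95% confidence interval -1.21 to -0.13; limma, adjusted p = 0.11). After median centring FTR1 fell by 1.02, or 2.03-fold (interval -1.62 to -0.42; limma, adjusted p = 0.042). That call was lost when the centred fit left out chromosome II genes (adjusted p = 0.062) and after quantile normalization (adjusted p = 0.060). On leaving out 1 array the value as deposited ran from -0.90 to -0.43. FET3 had -0.52 as deposited and -0.87 after median centring (limma, adjusted p = 0.27 and 0.15), and FRE4 had -0.88 and -1.23 (limma, adjusted p = 0.22 and 0.17). On the other side, HMX1 had 1.22 as deposited and 0.87 after centring (limma, adjusted p = 0.072 and 0.22), and FRE3 had 0.80 and 0.45 (limma, adjusted p = 0.069 and 0.26).

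As deposited, 0 members passed in this direct comparison, where 12.6% of tested genes did, and 3 members stood at an unadjusted p under 0.05, against 29.4% of tested genes (limma). Arrays did not overlap for 4 members, with FRE2, FRE3 and HMX1 higher and FTR1 lower in the eos1 deletion, and for 54.6% and 6.46% of tested genes in these directions. When only the arrays of these 2 strains were fitted, HMX1 (limma, adjusted p = 0.0067) and FRE3 (limma, adjusted p = 0.023) were called higher in the eos1 deletion. In that fit 882 of 4907 tested genes were called, 836 of them higher, so the count is not read as a result about the members. HMX1 had a log2 fold change as deposited of 0.58 without the first izh2 deletion array and 1.85 without the second, with no call in either case (adjusted p = 0.40 and 0.058). Leaving out either wild-type array kept the log2 fold changes at 1.22 for HMX1 and 0.80 for FRE3. The 1 wild-type array left adds nothing to the spread, so these fits repeat that of the 2 strains and add no support. HMX1 passed the filter on dim genes through its higher deletion arrays, so nothing is read from its calls here. Its first izh2 deletion signal, 56.4, lay under the filter level of 91.8. After median centring 1 member was called, FTR1, and it was lower, where 6.62% of tested genes were called higher and 3.91% lower. Arrays then did not overlap for 2 members higher and 3 lower, with no share of all genes given on that scale.

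The members did not vary alike between the 2 arrays of a strain. On median-centred values the second array minus the first gave for TIS11 1.76 in the eos1 deletion, 1.69 in the izh2 deletion and 0.55 in the wild type. FRE4 gave 1.13, 1.55 and 0.41, and CCC2 gave 0.91, 0.97 and 0.08, in the same order of strains. FET3 gave 0.89, 0.86 and 0.32. For TIS11, a difference larger in size was found in 0.143% of tested genes between the eos1 deletion arrays and in 0.0611% between the izh2 deletion arrays, so its arrays differed as much as those of nearly any gene measured, whereas in the wild type 15.7% of genes differed more. FRE1 stood at the other end, with -0.04, 0.01 and -0.01. HMX1 differed by 1.34 between the izh2 deletion arrays and by 0.25 between the eos1 deletion arrays.

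Of the 10 members 9 were higher on the second array of the eos1 deletion than on its first, 9 in the izh2 deletion and 7 in the wild type, against 52.8%, 48.1% and 53.0% of all tested genes. Their median difference was 0.57, 0.67 and 0.34. Other Aft targets went the same way: of 19 tested, 16, 15 and 16 were higher on the second array of the 3 strains in that order. The general stress genes went the other way in the deletions, with 13 of 14 higher on the first eos1 deletion array and 12 of 14 on the first izh2 deletion array, but 4 of 14 on the first wild-type array. The labels do not say whether arrays of the same number share a day, a medium batch or an extraction, and the part of such a factor was not tested.

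**Figure D3:**
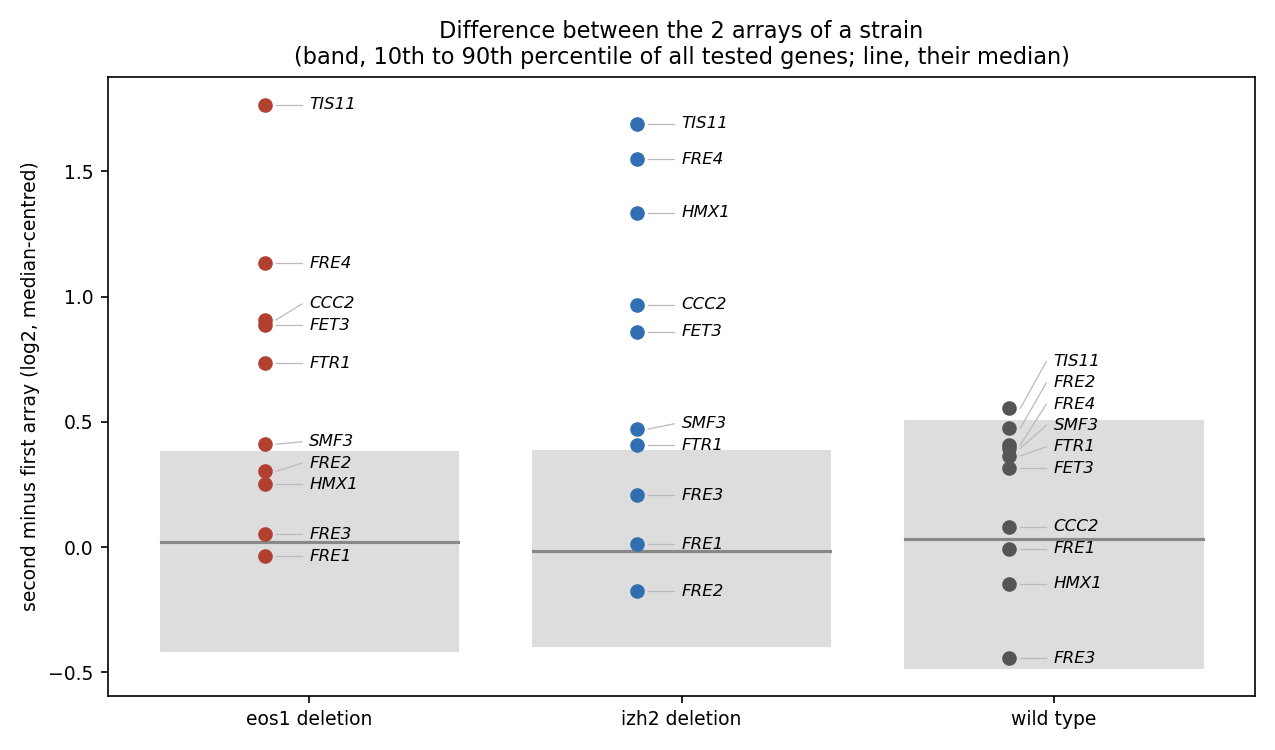
Second array minus first array of each strain, as a log2 difference after median centring (vertical axis), for the 10 iron genes (points) in the eos1 deletion, the izh2 deletion and the wild type; grey bands run from the 10th to the 90th percentile of all 4907 tested genes and grey lines mark their median. TIS11, FRE4, CCC2 and FET3 lie far above the band in both deletions, while in the wild type TIS11, at 0.55, is the gene above it.

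The main regulators of the pathway are the activators Aft1 and Aft2. AFT1 had signals of 254 and 393 on the eos1 deletion arrays, 254 and 290.3 on the izh2 deletion arrays, and 182 and 269 on those of the wild type. AFT2 had 266 and 222 on the eos1 deletion arrays, 229 and 259 on the izh2 deletion arrays, and 180.1 and 249 on those of the wild type. In both genes each deletion overlapped the wild type. The log2 fold change against the wild type was 0.52 for AFT1 and 0.20 for AFT2 in the eos1 deletion. The izh2 deletion had 0.30 for AFT1 and 0.20 for AFT2. Of 8 tested iron regulators, which include the monothiol glutaredoxins and the copper regulator MAC1, 0 passed in any of the 3 comparisons, and the same held for 4 tested relatives of the ferric reductases outside the members. With 7.11%, 0.0204% and 12.6% of all tested genes called in the 3 comparisons, lists of this size say little.

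Among other targets of Aft1 or Aft2, 4 of 19 tested genes rose and 0 fell in the eos1 deletion against the wild type, where 6.4% of all tested genes were called higher and 0.713% lower. Their median log2 fold change was 0.37, against 0.21 for all tested genes. After median centring 3 rose and 1 fell, beside 4.22% and 2.24% of tested genes. ECM4, a glutathione transferase gene, rose 4.52-fold to 581 and 582 in the eos1 deletion, against 116 and 143 in the wild type (limma, adjusted p = 0.0019). This call was made under each alternative that tested the gene. APE1, a vacuolar aminopeptidase gene, rose 2.12-fold (adjusted p = 0.016), and its call was lost when the first array of the eos1 deletion was left out (adjusted p = 0.074) and when the centred fit left out chromosome II genes (adjusted p = 0.077). FTH1 encodes a vacuolar iron transporter and is a chromosome II gene. Its log2 fold change of 1.03 equals the median of the chromosome II genes, 1.03. It rose 2.05-fold (adjusted p = 0.021), a call lost on leaving out the first eos1 deletion array, where the adjusted p was 0.096, or the second wild-type array, where it was 0.055. ARN1, a siderophore transporter gene, rose 1.98-fold with signals of 777 and 924 in the eos1 deletion, against 365 and 501 in the wild type (limma, adjusted p = 0.030), and its call was lost after median centring (adjusted p = 0.12) and on leaving out any array except the second wild-type array. ISU2, an iron-sulfur scaffold gene, was the fall after median centring, with 816 and 582 in the eos1 deletion, against 1095 and 1225 in the wild type (centred log2 fold change -0.98; limma, adjusted p = 0.019). In the izh2 deletion against the wild type 0 of the 19 passed, and their median was 0.11, against -0.11 for all genes. In the eos1 deletion against the izh2 deletion 3 rose, ECM4 (4.61-fold), APE1 (3.15-fold) and FTH1 (2.01-fold), and 0 fell, where 11.9% of all tested genes were called higher and 0.713% lower. The FTH1 call was lost after median centring and after quantile normalization (limma, adjusted p = 0.067 and 0.071). Its log2 fold change ran from 0.80 to 1.21 on leaving out 1 array. After centring 2 of the 19 rose and 2 fell, beside 6.62% and 3.91% of tested genes, and 6 had a positive value. Among 11 genes for the uptake and storage of other metals or of vacuolar iron, FTH1 was the 1 called in the eos1 deletion against the wild type.

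Iron use downstream of uptake was covered by 3 lists. Of 24 tested genes for enzymes that carry iron, 1 fell and 0 rose in the eos1 deletion against the wild type, beside 0.713% and 6.4% of all tested genes, with a median log2 fold change of 0.11. The fallen gene, BIO2, encodes the iron-sulfur enzyme biotin synthase and fell 2.21-fold (limma, adjusted p = 0.028). BIO2 had 436 and 452 in the eos1 deletion, against 1260.1 and 761 in the wild type, and its call was lost on leaving out any array except the second wild-type array (adjusted p up to 0.13). After median centring GLT1, ILV3 and LEU1, which encode iron-sulfur enzymes of amino acid synthesis, fell as well (centred log2 fold changes -0.91, -0.71 and -0.59). These calls lay close to the threshold (limma, adjusted p = 0.043, 0.040 and 0.046) and were absent as deposited (limma, adjusted p = 0.19, 0.14 and 0.27). With BIO2, 4 of the 24 fell after centring, where 2.24% of all tested genes were called lower. Of 25 genes of iron-sulfur cluster assembly and of 10 genes of haem synthesis 0 passed, with medians of 0.14 and 0.15 against 0.21 for all tested genes, and after centring 1 fell, ISU2, which belongs to the assembly list too. Against the wild type, 0 genes of these 3 lists passed in the izh2 deletion, also after centring, where 0.0204% of all tested genes did (limma).

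In the eos1 deletion against the izh2 deletion 5 of the 24 iron enzyme genes rose and 0 fell, where 11.9% of all tested genes were called higher and 0.713% lower. They were CTT1, the cytosolic catalase gene (3.58-fold, adjusted p = 0.013), SDH4 and SDH2 of succinate dehydrogenase (2.20-fold and 2.06-fold), CYT1 of the cytochrome bc1 complex (1.94-fold) and NTG2, a DNA glycosylase gene (1.73-fold; limma throughout). All 14 general stress genes rose in the same comparison, and 12 of them did after median centring. Without the first eos1 deletion array and without the second izh2 deletion array the adjusted p of each of the 5 lay above 0.05. After centring 2 of the 24 rose, SDH4 and CTT1, and 3 fell, BIO2, ILV3 and LEU1, beside 6.62% and 3.91% of all tested genes.

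**Figure D4:**
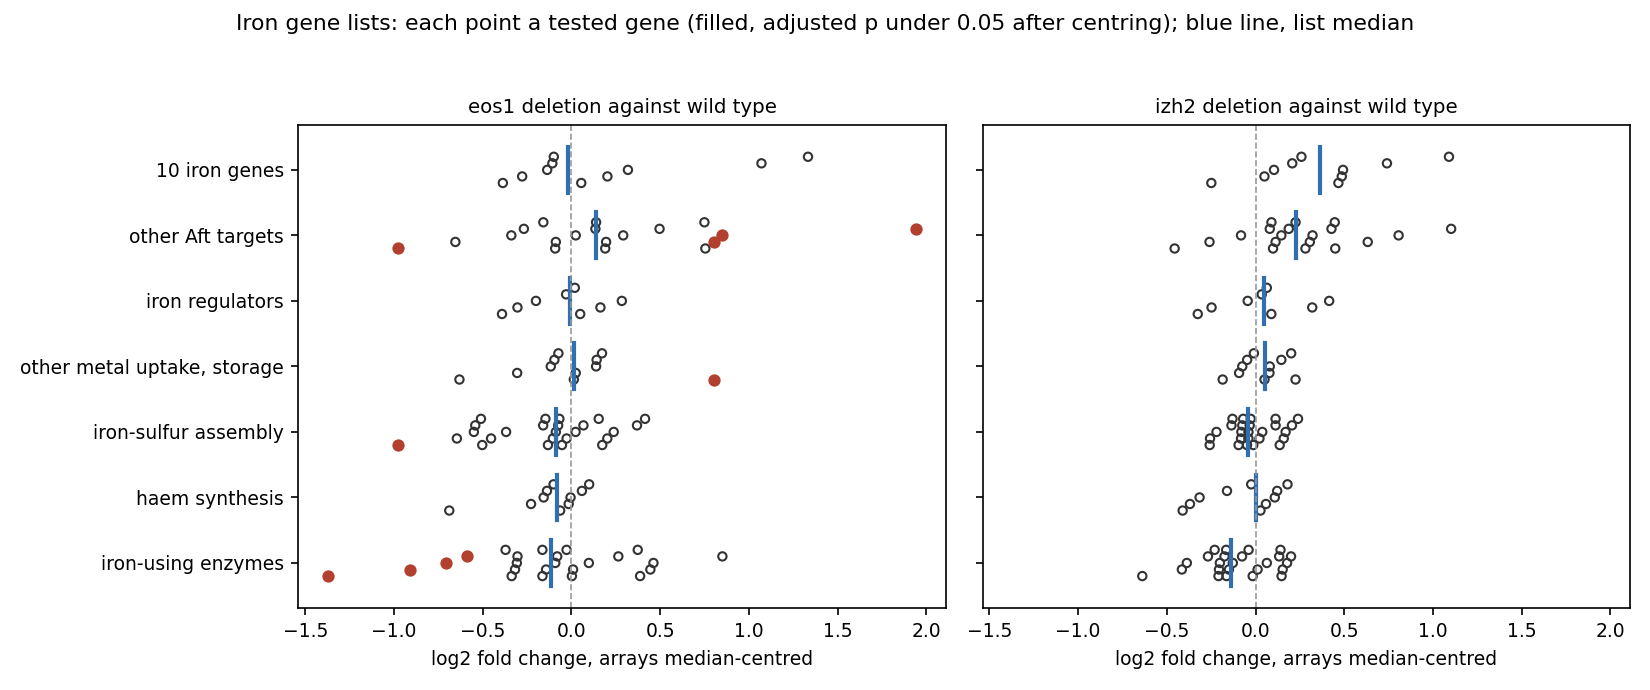
Log2 fold change after median centring of every tested gene in 7 iron-related lists, for the eos1 deletion (left panel) and the izh2 deletion (right panel), each against the wild type; filled red points passed an adjusted p under 0.05 on centred values and blue lines are list medians. In the left panel 3 other Aft targets lie to the right (ECM4, APE1 and FTH1) and ISU2 and 4 iron-using enzyme genes to the left, with FTH1 and ISU2 drawn in 2 lists each, and the right panel holds no filled point.

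The genes whose pattern over the 6 arrays was most like that of FET3, by Pearson's r on median-centred log2 signals, were ENT5 (r = 0.982), SUT1 (0.982), SGO1 (0.975), PHO89 (0.975) and FIT3 (0.974). FIT3 encodes a cell wall mannoprotein that retains siderophores, SUT1 a transcription factor of sterol uptake and PHO89 a sodium-dependent phosphate transporter. FIT3 had signals of 771 and 1220.4 on the eos1 deletion arrays, 1155 and 1491 on the izh2 deletion arrays, and 991 and 1102 on those of the wild type. Like FET3, it was lowest on the first eos1 deletion array and highest on the second izh2 deletion array. For FTR1 the genes most like it were MOT3 (0.987), SMC1 (0.975), CDC14 (0.969), SWC3 (0.965) and SUT1 (0.964), with FIT3 at rank 6 (0.964). FTR1 itself ranked 27 among 4906 genes for likeness to FET3 (r = 0.942), and FRE4 ranked 13 (r = 0.962). SMF3 had r = 0.829. Among genes of siderophore uptake ENB1 had 0.943, FIT2 0.869, SIT1 0.821 and ARN2 0.760, but ARN1 only 0.075. FRE1, CCC2, FRE2 and TIS11 were further away (r = 0.644, 0.636, 0.470 and 0.439), HMX1 stood near 0 (-0.02), and FRE3 ran opposite (-0.49). These values describe 6 arrays that share strains and scaling. As deposited, FET3 ran from 1381 to 3239 and PHO89 from 238 to 1704, but SGO1 only from 383 to 436 and ENT5 from 468 to 573. FTR1 ran from 1511 to 3178, but MOT3 only from 127 to 161, SMC1 from 258 to 298 and SWC3 from 147 to 177. CDC14 ran from 638 to 818 and SUT1 from 194 to 354. The part of the centring in these r values was not tested.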

How the data were processed

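The deposited values are the authors' signal intensities, 1 for each probe set of an array and not logged, made with GCOS per the submitters' processing notes, and the study's statistics used GeneSpring 7.3.1, per the series' design text. The scaling between arrays and the GCOS version are not given in the sources used here. Gene names came from the platform annotation, updated with the R64 gene table (5498 of 10928 name 1 yeast gene), with the brightest probe set per gene. Signals were floored at 1, which changed 0 member values, and taken to log2. Testing required a mean log2 signal above the 95th percentile of probe sets naming no S. cerevisiae gene (6.52), which kept 4907 genes and all 10 members. Limma 3.58.1 in R 4.3.3 fitted the 6 arrays together (eBayes with an intensity trend, with 3 degrees of freedom from residuals and 7.41 from the prior). Two-sided p values took a Benjamini-Hochberg adjustment across every tested gene, with 0.05 as threshold. The fit was tested on simulated data. It recovered 73% of genes changed by 1 on the log2 scale and 100% of those changed by 2, and it called 11 unchanged genes. The simulated arrays had independent noise and no shift of array medians or of chromosome II genes. They therefore do not test the effect of such shifts. The design text speaks of independent experiments without naming cultures, so p values measure the spread between these arrays. Their number limits the precision.

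Members and lists were chosen with earlier results of these data known. The text names the members, AFT1, AFT2, the deleted genes, up to 4 called genes per iron list and direction with the smallest p, and the 5 genes most like FET3 and like FTR1. Genes called after centring alone, and the fifth iron enzyme gene in the direct comparison of the deletions, were named after their values were seen. Alternatives changed the scaling, floor, filter, probe sets, strains fitted, variance prior, chromosome II genes, replicate block and arrays.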

Additional observations from a re-analysis of the deposited data

How the results depend on the processing

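Over 519 comparisons of a member's fold change with an alternative, 449 kept direction and side of the threshold, 7 lost a call, 11 gained one and 52 changed sign, and 14 of the 30 member results never changed sign. Many alternatives can move a member's adjusted p but not its fold change. These are the filters, probe sets, strains fitted, variance prior, chromosome II genes, replicate block alone, and leaving out an array of the third strain. The kept directions are thus partly fixed in advance and do not measure stability. The largest fold change that turned was 0.41 on the log2 scale. Genes called in the eos1 deletion against the wild type numbered 349, but 95 under a stricter filter on dim genes, 224 with those 2 strains fitted alone, 59 without chromosome II genes, 100 with centring as well, and 159 to 413 on leaving out 1 array. In the izh2 deletion against the wild type 1 became 4 under the stricter filter and 1 to 25 on leaving out 1 array. In the eos1 deletion against the izh2 deletion 617 became 139 under the stricter filter, 250 without chromosome II genes, 228 with centring as well, and 75 to 875 on leaving out 1 array (75 without the second izh2 deletion array). Members called against the wild type in the eos1 deletion were 0 after median centring and after quantile normalization. They were also 0 without chromosome II genes and in both added fits. Under the stricter filter, which tested 3 of the 10 members and removed HMX1, they were 0 too. In the eos1 deletion against the izh2 deletion they were 1 after centring, 2 with the 2 strains alone and 1 with the replicate block (FTR1, lower, limma, adjusted p = 0.040). With centring and the block 3 members were called, all lower (limma, adjusted p = 0.012 for FTR1, 0.029 for FET3 and 0.030 for FRE4). Of 4907 tested genes 517, 882, 736 and 687 were called in these fits, in the same order, and 324 of the 687 were lower. The member count also moved on leaving out 1 array. The cause of these changes was not tested, apart from the filter.

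Median centring, alone and in both added fits (with chromosome II left out, or with the replicate block), turned these log2 fold changes: in the eos1 deletion against the wild type AFT2 -0.030, FRE1 -0.11, FRE2 -0.10 and FRE4 -0.14, in the izh2 deletion against the wild type FRE1 0.10 and FRE2 0.050, and in the eos1 deletion against the izh2 deletion FRE1 -0.21, FRE2 -0.15 and SMF3 -0.15. Quantile normalization turned AFT2 (-0.18), FRE2 (-0.45) and FRE4 (-0.44) in the first comparison, FRE1 (0.12) and FRE2 (0.025) in the second, and CCC2 (-0.021), FRE1 (-0.094), FRE2 (-0.48) and SMF3 (-0.15) in the third. Leaving out 1 array gave ranges that cross 0: in the eos1 deletion against the wild type AFT2 -0.032 to 0.43, FET3 -0.47 to 0.16, FTR1 -0.28 to 0.19, FRE1 -0.026 to 0.27, FRE2 -0.040 to 0.30 and FRE4 -0.34 to 0.53; in the izh2 deletion against the wild type AFT2 -0.032 to 0.43, FET3 -0.028 to 0.76, FRE1 -0.082 to 0.054, FRE2 -0.24 to 0.10, CCC2 -0.31 to 0.59, SMF3 -0.11 to 0.29, TIS11 -0.44 to 1.19 and HMX1 -0.28 to 0.98; and in the eos1 deletion against the izh2 deletion FRE1 -0.012 to 0.29, CCC2 -0.040 to 0.86 and SMF3 -0.0029 to 0.40. Arrays of the same number did not deviate together in all pairs of strains (r = 0.48 for the eos1 deletion and the wild type, -0.34 for the izh2 deletion and the wild type, and 0.09 for the deletions, over 4907 genes), so the numbers are not shown to pair the samples. The fits joining centring with another change were chosen after seeing the data. Strains of 2 arrays were not tested for an outlying array within the strain, and FRE2, TIS11 and HMX1 lie near the filter on dim genes.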
